A study of Mus musculus with 6 samples.

Results

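The 9 genes described here encode transcription factors that set and hold the identity of T cells, taken by symbol from a fixed list: Tcf7, Lef1, Bcl11b, Myb, Ets1, Ikzf1, Gfi1 and the E protein genes Tcf3 and Tcf12. All 9 were found among the 22298 genes of the deposited tables, and all 9 passed the filter on low counts that left 14121 genes for testing. RNA came from thymocytes of C57BL/6 mice with no treatment. One genotype was Toxf/f, in which both copies of Tox are flanked by sites for Cre recombinase, and the other was Toxf/fPdcd1Cre, which carries the same floxed alleles and a Cre named for Pdcd1, the gene of the receptor PD-1. Neither genotype had Cre without floxed Tox, and the labels do not say in which cells this Cre acts. Each genotype had 3 samples, with replicates 1 and 2 taken at 3 weeks of age and replicate 3 at 4 weeks. The sample titles call the cells DN (double-negative, lacking surface CD4 and CD8), while the protocol speaks of DN2, the second double-negative stage.

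These factors come from several protein families and often act at the same regulatory regions. TCF-1 (from Tcf7) and LEF-1 (from Lef1) bind DNA through a related HMG box, act downstream of Notch and Wnt signals, and open chromatin in early T cell precursors. E2A (from Tcf3) and HEB (from Tcf12) are basic helix-loop-helix proteins that bind E-boxes as dimers and drive the genes of the pre-T cell receptor and of receptor gene rearrangement. Id proteins pair with them and keep them off DNA. BCL11B closes the choice of other lineages during T cell commitment, Ikaros (from Ikzf1) acts with the NuRD chromatin complex, and GFI1 is a repressor that recruits a histone demethylase. MYB and ETS1 are activators needed for the growth and survival of thymocytes.

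The files of Toxf/f replicates 1 and 2 held the same values throughout and were counted as 1 library. This left 2 Toxf/f libraries against 3 Toxf/fPdcd1Cre libraries, and values by library are given below in that order: the shared Toxf/f file, Toxf/f replicate 3, and Toxf/fPdcd1Cre replicates 1, 2 and 3. Whether the samples were taken from different mice is not stated. The p-values below therefore reflect no more than the variation among these 5 libraries, part of which may be technical. Ages differed within each genotype, and the Toxf/fPdcd1Cre libraries of 3 weeks differed in the chromosome Y gene Ddx3y (1 count against 843). Total estimated counts ranged from 14245492 to 16199195 per library. Tox, the targeted gene, stood at 121 and 105 CPM (counts scaled to library size) in Toxf/f and at 19.2, 16.4 and 13.8 CPM in Toxf/fPdcd1Cre. It was 6.87-fold lower (log2 -2.78 ± 0.16 SE, adjusted p = 6.72e-06). For Ddx3y, on chromosome Y, Toxf/fPdcd1Cre replicate 1 differed from the rest: it had 1 count, where the remaining 4 libraries had 843 to 1354. The labelled stage was not plain in its markers. Among all genes by mean CPM, Rag1 ranked 3, Cd8a 26 and Cd4 105, whereas the DN2 markers Il2ra, Cd44 and Kit ranked 2229, 5656 and 8117. High Cd4 and Cd8a do not match a purely double-negative population, so the cells are named below only by genotype.

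All 9 factors were expressed well above most genes. On the per-length scale (FPKM, which divides fragments by gene length and library total), Tcf7 had the highest level, with a mean of 1304 ± 163 FPKM (SD, n = 5 libraries), which ranked 41 among all listed genes. Ets1 followed at 265 ± 25.1 FPKM, Myb at 261 ± 11.3, Ikzf1 at 216 ± 17.9 and Tcf12 at 206 ± 27.0. Below them stood Lef1 at 107 ± 34.1 FPKM, Bcl11b at 74.8 ± 10.5, Tcf3 at 64.9 ± 7.79 and Gfi1 at 40.2 ± 3.45, the last of which still ranked 2215. Several neighbours in this order had overlapping ranges over the 5 libraries of both genotypes. The ranges of Ets1 and Myb overlapped, as did those of Ikzf1 and Tcf12, of Lef1 and Bcl11b, and of Bcl11b and Tcf3. The range and SD of Lef1 include its genotype difference, given below. In Toxf/f alone Lef1 stood at 147 and 141 FPKM against 63.3 and 75.5 for Bcl11b. In Toxf/fPdcd1Cre it stood at 81.2, 76.9 and 89.4 FPKM against 77.4, 67.2 and 90.4. The ranges of Tcf7 and Ets1, of Myb and Ikzf1, of Tcf12 and Lef1, and of Tcf3 and Gfi1 did not overlap. Tcf7 therefore stood alone at the top of the order, and Gfi1 alone at its foot.

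**Figure D1:**
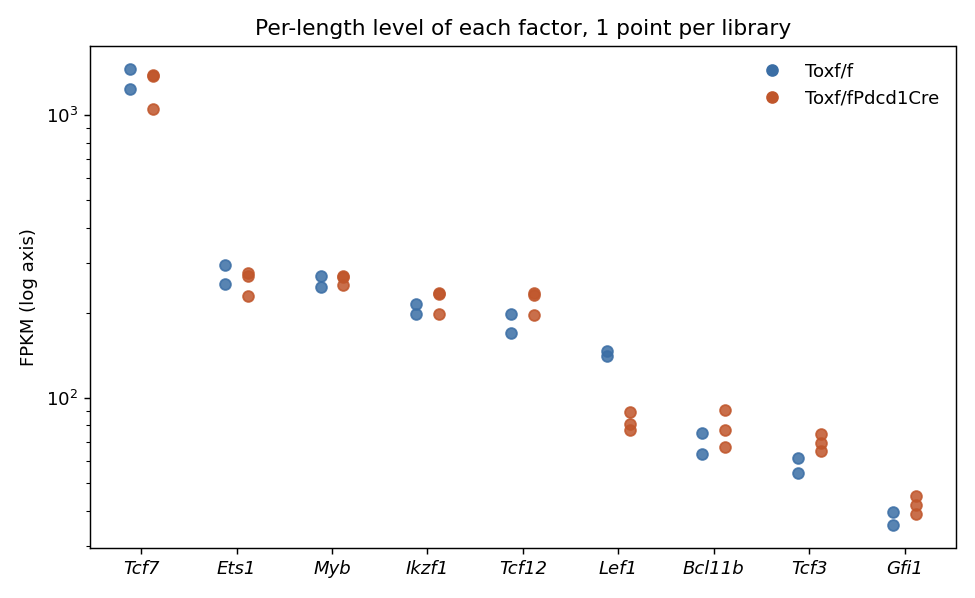
FPKM of each factor on a log axis, with 1 point per distinct library, blue for Toxf/f and orange for Toxf/fPdcd1Cre, and genes ordered by mean level. Tcf7 lies at 1049 FPKM or above in every library, the points of Lef1 form separate clusters by genotype at 141 FPKM and above against 89.4 FPKM and below, and Gfi1 lies lowest, between 35.6 and 44.9 FPKM.

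Of the 9 factors, 1 passed the test between genotypes, Lef1, which was lower in Toxf/fPdcd1Cre, and none passed in the higher direction. Among all 14121 genes tested, 1.64% were called, 1.51% as lower and 0.135% as higher. With 1 call among 9 genes, the factors as a set cannot be told apart from this background. At an unadjusted p under 0.05 the factors were 3 (Lef1, Tcf3 and Tcf12), against a background of 10.3%. The median log2 fold change of the 9 was 0.08, beside 0.03 over all genes tested, with 6 above 0 and 3 below. Library values did not overlap between genotypes for 4 of the 9: Lef1, which was lower, and Tcf3, Tcf12 and Gfi1, which were higher. Across all genes, values did not overlap for 26.2%, of which 13.5% were lower and 12.6% higher. On the FPKM scale, the values of Tcf12 and Gfi1 overlapped.

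**Figure D2:**
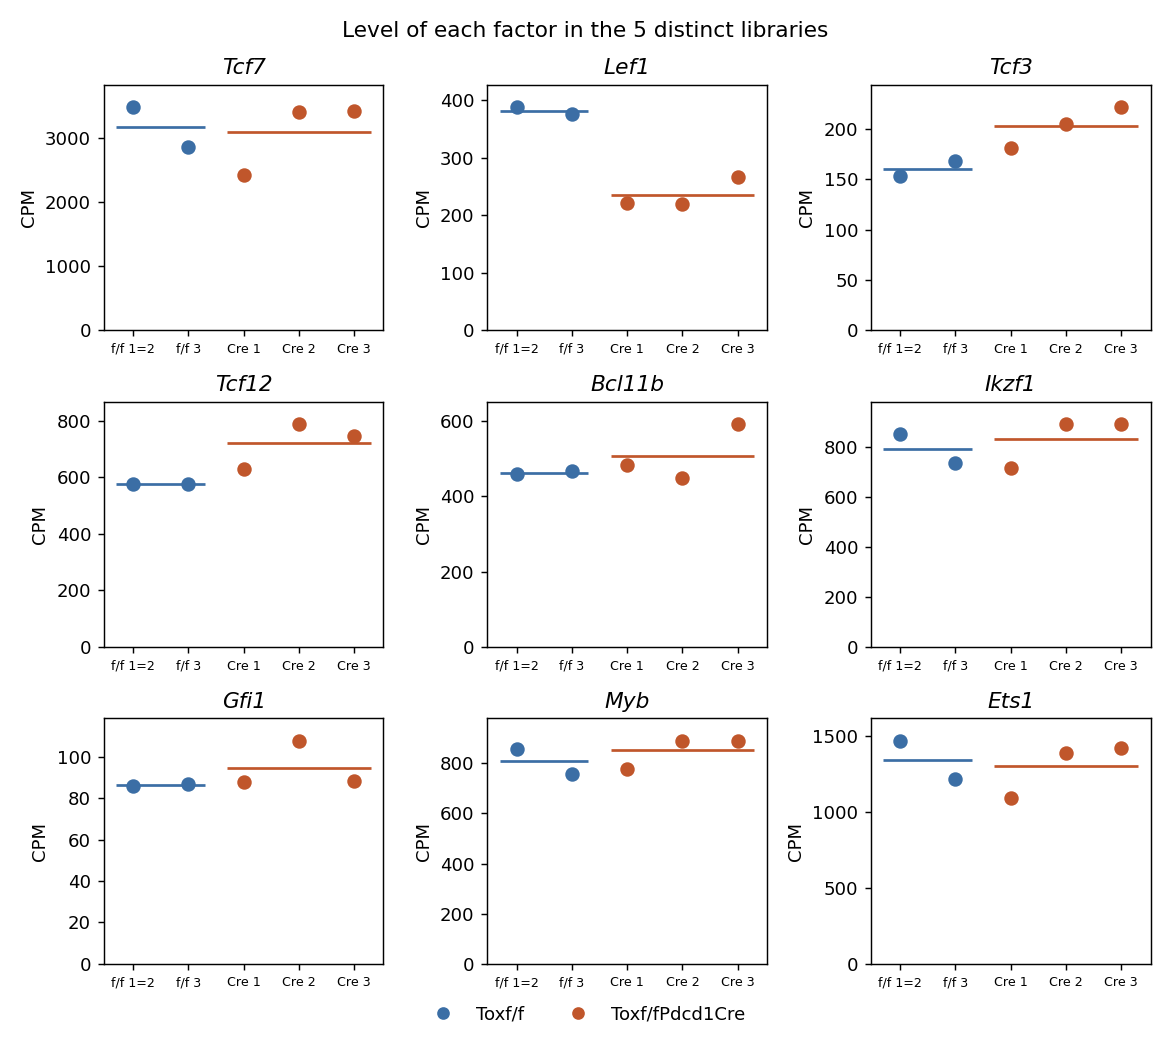
CPM of each factor by distinct library, with the axis from 0 and a horizontal line at the mean of each genotype (n = 2 libraries of Toxf/f, the first of them shared by replicates 1 and 2, and n = 3 of Toxf/fPdcd1Cre). Lef1 separates most widely by genotype, at 376 CPM and above against 267 CPM and below, while Tcf7, Ets1 and Ikzf1 are lowest in Toxf/fPdcd1Cre replicate 1.

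Lef1 was the factor that changed. It lies on chromosome 3 from 131110471 to 131224356 on the plus strand (GRCm38). Its level was 388 and 376 CPM in Toxf/f and 221, 219 and 267 CPM in Toxf/fPdcd1Cre. Every Toxf/fPdcd1Cre library was thus below both Toxf/f libraries, with means of 236 ± 27.0 (SD, n = 3) and 382 ± 8.08 CPM (SD, n = 2). The fold was 1.62 lower, with a log2 fold change of -0.70 ± 0.14 (SE), a 95% interval from -1.0 to -0.39 and an adjusted p of 0.0288 by edgeR's quasi-likelihood test. The underlying counts, 6055 and 6246 against 3238, 3429 and 3877 in the same order of libraries, were large. FPKM values told the same order, at 147 and 141 against 81.2, 76.9 and 89.4.

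The size of the Lef1 difference moved little, but its call rested on few libraries. Over 17 alternative settings the log2 fold change stayed between -0.81 and -0.65, and the adjusted p ran from 8.04e-05 to 0.294, past the threshold in 13 of 17. The call was lost without the shared Toxf/f library (-0.67, adjusted p = 0.264), with Toxf/f replicate 3 left out (-0.72, adjusted p = 0.294), with Toxf/fPdcd1Cre replicate 2 left out (-0.65, adjusted p = 0.0677) and with age as a covariate (-0.68, adjusted p = 0.0686). Without Toxf/fPdcd1Cre replicate 1, the library that stood apart in Ddx3y, it was kept (-0.69, adjusted p = 0.0310).

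Tcf7, the close relative of Lef1, did not pass the test. It lies on chromosome 11 from 52252371 to 52283014 on the minus strand. Its level was 3478 and 2856 CPM in Toxf/f and 2421, 3410 and 3424 CPM in Toxf/fPdcd1Cre. Toxf/fPdcd1Cre replicate 1 was the lowest library and the shared Toxf/f library the highest, and the genotypes overlapped. The means were 3167 ± 440 (SD, n = 2) and 3085 ± 575 CPM (SD, n = 3), and the log2 fold change was -0.04 ± 0.18 (SE), with a 95% interval from -0.44 to 0.36 and an adjusted p of 0.978. The sign turned without the shared Toxf/f library (0.12) or Toxf/fPdcd1Cre replicate 1 (0.07). The interval does not reach the estimate of Lef1 (-0.70), but it overlaps the interval of Lef1 (-1.0 to -0.39). No test compared the pair in this fit.

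The balance of the HMG-box pair was measured as the ratio of Tcf7 to Lef1 FPKM within each library. The ratio was 9.94 and 8.77 in Toxf/f and 12.9, 18.0 and 15.5 in Toxf/fPdcd1Cre. Each Toxf/fPdcd1Cre library was above both Toxf/f libraries, with means of 15.5 ± 2.55 (SD, n = 3) and 9.36 ± 0.831 (SD, n = 2). The difference was 0.71 on the log2 scale, or 1.64-fold. An exact two-sided permutation test gave p = 0.1, the smallest that 2 against 3 libraries allow. Since Lef1 is the denominator, this ratio is no evidence apart from its fall.

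The stretch before the start of Lef1 is shown to place the gene that changed beside the binding letters of its own protein family. In the 250 bases before the most upstream RefSeq start (GRCm38.p6, chr3:131110047-131110296, plus strand), capitals mark the single match to CTTTG, the core of the TCF/LEF motif, which begins 161 bases before that start.
Lef1: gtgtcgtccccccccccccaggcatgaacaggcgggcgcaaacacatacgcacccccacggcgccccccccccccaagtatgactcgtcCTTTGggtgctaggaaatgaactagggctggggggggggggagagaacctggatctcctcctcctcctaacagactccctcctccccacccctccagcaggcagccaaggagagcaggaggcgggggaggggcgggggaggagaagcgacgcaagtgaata
The window held 11 CpG dinucleotides, against a median of 6 over 27025 promoters, and no E-box or ETS motif of the kinds spelled out for the E protein genes. The core, searched on both strands, was in 48.8% of all promoter windows of this length. The longer TCF/LEF form CTTTGAT was in 3.26% of all windows and in none of the 7 windows of these factors that were counted. A match is a description of letters and not of binding.

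Genes that mark other cells had different levels in the same libraries as Lef1. The 7 markers of mature single-positive thymocytes, a stage at which Lef1 is also expressed, summed to 516 to 598 CPM in Toxf/f and to 330 to 348 CPM in Toxf/fPdcd1Cre, and 5 of the 7 fell. They include the trafficking genes Ccr7 (log2 -2.19), S1pr1 (-1.73) and Klf2 (-1.23) and the GTPase gene Gimap3 (-2.0). The 4 regulatory T cell markers summed to 50.1 to 53.3 against 21.0 to 24.1 CPM. Of these 4, 3 fell, and 1 lay above 0, at 0.11, and did not pass. Foxp3, the lineage factor of these cells, stood at 7.36 and 9.76 CPM against 0.410, 0.383 and 0, and Tnfrsf4 (-3.31) and Tnfrsf18 (-1.0) fell with it. The 4 gamma-delta T cell markers summed to 152 to 176 against 261 to 440 CPM, where the receptor constant gene Trdc (0.86, adjusted p = 0.0437) and Cd163l1 (3.35) rose. The call of Trdc was lost in 9 of 17 alternatives, among them RLE scaling (adjusted p = 0.0551) and age as a covariate (0.0789). Cd163l1 was highest in Toxf/fPdcd1Cre replicate 1, at 78.0 CPM against 27.4 and 25.4 CPM in replicates 2 and 3, and was at 2.59 without it. The 6 dendritic cell markers ran from 1363 to 1568 against 795 to 1015 CPM, where Cd74 (-0.74) and Flt3 (-1.05) fell and H2-Ab1 (-0.57) did not pass. The calls of Cd74 and Flt3 were each lost in 6 alternatives, of 17 and 16.

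The remaining marker lists held few calls. None of 4 myeloid markers passed (443 to 521 against 201 to 308 CPM; Lyz2 at -1.12, adjusted p = 0.0539, and Csf1r at -0.32), nor any of 6 B cell markers (54.6 to 80.4 against 46.6 to 54.2 CPM; Cd79a at -0.88 and Cd79b at 0.07). Of the 4 myeloid markers, 2 lay below 0 and 2 above it, with a median of -0.10 and a highest value of 0.29. Lyz2 passed in 7 of 17 alternatives, among them limma-voom (adjusted p = 0.0323) and the fit without Toxf/fPdcd1Cre replicate 1 (-0.89, adjusted p = 0.00893). Sums overlapped between genotypes for the 7 double-positive markers (9402 to 10132 against 9072 to 11606 CPM; Rag1 at 0.23 and Cd8b1 at 0.03, none called) and the 6 thymic epithelial markers (907 to 1054 against 927 to 1112 CPM; Ccl25 at 0.15 and Krt5 at -0.41, none called). They also overlapped for the 3 DN2 markers (153 to 197 against 135 to 187 CPM), of which Cd44 (-0.67, adjusted p = 0.0437) fell and Il2ra was at 0.13. Of these 3 markers, 2 lay below 0, with a median of -0.63. The call of Cd44 was lost in 9 of 17 alternatives, among them upper-quartile scaling (adjusted p = 0.0659), age as a covariate (0.0955) and 4 of the 5 fits that left out a library. The same held for the 6 NK and innate lymphoid markers (26.4 to 31.2 against 26.8 to 50.7 CPM), of which 1 of 5 tested rose, Klrb1c, with Gzmb at 1.33 (adjusted p = 0.0678) and Nkg7 at -0.78. Gzmb passed in 6 of 16 alternatives, among them DESeq2 (adjusted p = 0.0132). The signs of Cd8b1, Cd79b and Il2ra turned under at least 1 alternative. No marker was at 0 in every library. Of 14 named marker genes that passed, 5 stayed past the threshold without the shared Toxf/f library, 3 without Toxf/f replicate 3, and 14, 11 and 8 without Toxf/fPdcd1Cre replicates 1, 2 and 3. The part of these cells in the Lef1 difference was not tested, and in such bulk samples fewer cells of a type and less RNA per cell cannot be told apart.

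Both E protein genes had higher values in every Toxf/fPdcd1Cre library on the CPM scale, and neither passed the adjusted test. Tcf3, which encodes E2A, lies on chromosome 10 from 80409514 to 80433647 on the minus strand. It stood at 153 and 169 CPM in Toxf/f and at 181, 205 and 222 CPM in Toxf/fPdcd1Cre. The lowest Toxf/fPdcd1Cre library was above the higher Toxf/f library, with means of 161 ± 11.0 (SD, n = 2) and 203 ± 20.3 CPM (SD, n = 3). The log2 fold change was 0.33 ± 0.14 (SE), with a 95% interval from 0.03 to 0.64, an unadjusted p of 0.0327 and an adjusted p of 0.408 in edgeR's fit. Tcf12, which encodes HEB, lies on chromosome 9 from 71842688 to 72111871 on the minus strand. It stood at 576.0 and 576.2 CPM in Toxf/f and at 630, 788 and 746 CPM in Toxf/fPdcd1Cre. The Toxf/f libraries were nearly equal, and replicate 1 was the lowest of the Toxf/fPdcd1Cre libraries. The log2 fold change was 0.32 ± 0.15 (SE), with a 95% interval from 0.005 to 0.64, an unadjusted p of 0.0473 and an adjusted p of 0.474 in edgeR's fit. On the FPKM scale Tcf3 kept its separation, at 54.1 and 61.5 against 64.8, 69.6 and 74.5. Tcf12 did not, at 170 and 198 against 197, 235 and 231 FPKM. Neither gene passed under any of 17 alternatives, in which Tcf3 ran from 0.27 to 0.41 and Tcf12 from 0.25 to 0.41.

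The windows before the E protein genes are shown because both genes had higher values in the same libraries, and because the window of Tcf12 holds an E-box, the motif that E proteins bind. They come from RefSeq (GRCm38.p6) and are trimmed where GENCODE M21 starts the transcript: chr10:80433648-80433885 for Tcf3 and chr9:72111872-72112069 for Tcf12, both on the minus strand. Capitals mark matches on either strand to the TCF/LEF core, to the E-box as CAGCTG or as the other form CAGGTG, and to the ETS factor motif GGAAGT.
Tcf3: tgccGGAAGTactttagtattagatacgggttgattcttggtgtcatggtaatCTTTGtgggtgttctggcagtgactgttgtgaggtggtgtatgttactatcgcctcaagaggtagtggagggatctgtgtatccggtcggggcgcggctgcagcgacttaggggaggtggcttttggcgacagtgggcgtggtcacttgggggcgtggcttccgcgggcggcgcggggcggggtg
Tcf12: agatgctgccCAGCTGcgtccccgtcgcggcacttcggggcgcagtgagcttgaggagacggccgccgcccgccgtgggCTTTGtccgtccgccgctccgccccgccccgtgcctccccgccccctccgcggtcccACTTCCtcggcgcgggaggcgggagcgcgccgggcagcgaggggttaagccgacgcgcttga
The Tcf3 window held the ETS motif 246 bases before the RefSeq start and the TCF/LEF core 197 bases before it. The Tcf12 window held an E-box at 240 bases, the TCF/LEF core at 171 bases and the ETS motif, on the other strand, at 114 bases before the start. It also held 38 CpG dinucleotides over its full 250 bases, more than 98.2% of promoter windows. The first E-box form was in 12.7% of all windows and, among the 7 windows counted, only in that of Tcf12. The window of Tcf7 was also searched, but was left out of the counts after its letters were seen and read as overlapping coding sequence. RefSeq and GENCODE M21 both start Tcf7 at 52283014, so by these annotations its window lies before the gene. The Tcf7 window held 1 match to this first E-box form and 1 to the MYB form given below, and no other match. The other form was in 17.1% of all windows and only in that of Gfi1 among the 7. The ETS motif was in 19.9% of all windows and in 3 of the 7, those of Bcl11b, Tcf12 and Tcf3. The TCF/LEF core was in 5 of the 7, those of Lef1, Tcf3, Tcf12, Bcl11b and Ikzf1. These counts used the full 250 bases without trimming. The windows of Bcl11b, Gfi1 and Ikzf1 were kept, although by GENCODE M21 most of the Bcl11b and Gfi1 windows lie within the gene. All of the Ikzf1 window does, with a RefSeq start at 11685925 against a GENCODE start at 11685003. Among motifs of other families, also searched on both strands, the RUNX letters TGTGGT were in 14.2% of all windows and in none of the 7. The GATA letters AGATAA were in 10.2% of all windows and likewise in none of the 7. The short MYB form AACNG was in 74.2% of all windows and in 4 of the 7.

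E proteins act in balance with Id proteins, so the summed FPKM of Tcf3, Tcf12 and Tcf4 was set against that of Id1, Id2, Id3 and Id4. Tcf4, the third E protein gene, gave at most 6.37% of the E sum, while Tcf12 gave 71.1% to 74.5% and Tcf3 22.1% to 23.3%. The E sum was 237 and 278 FPKM in Toxf/f and 278, 315 and 322 FPKM in Toxf/fPdcd1Cre. The Id sum was 122 and 136 FPKM in Toxf/f and 110, 105 and 84.7 FPKM in Toxf/fPdcd1Cre. The ratio of E to Id was 1.94 and 2.05 in Toxf/f and 2.53, 3.00 and 3.80 in Toxf/fPdcd1Cre. Each Toxf/fPdcd1Cre library had the higher ratio, with means of 3.11 ± 0.645 (SD, n = 3) and 1.995 ± 0.0757 (SD, n = 2). The difference was 0.62 on the log2 scale, or 1.54-fold, and an exact two-sided permutation test gave p = 0.2, where the smallest possible was 0.1.

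The Id genes were then compared one by one. Id2 made up 39.5% and 40.3% of the Id sum in Toxf/f and 34.2%, 30.4% and 30.7% in Toxf/fPdcd1Cre, while Id3 made up 53.0% and 52.3% against 58.1%, 64.0% and 64.2%. Id2 stood at 60.1 and 66.6 CPM in Toxf/f and at 46.1, 41.4 and 34.3 CPM in Toxf/fPdcd1Cre, so that the genotypes did not overlap. The log2 difference was -0.64 ± 0.15 (SE), and its adjusted p of 0.0671 missed the threshold. It passed in 7 of 17 alternatives, among them DESeq2 (adjusted p = 0.0121) and the fit without Toxf/fPdcd1Cre replicate 1 (-0.78, adjusted p = 0.0224). Id3, the more abundant of the pair, was at -0.08 ± 0.14 (SE; adjusted p = 0.930). The dendritic cell and mature single-positive markers given above were lower in the same Toxf/fPdcd1Cre libraries and the gamma-delta T cell markers higher, and their part in the ratio of E to Id and in Id2 was not tested.

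**Figure D3:**
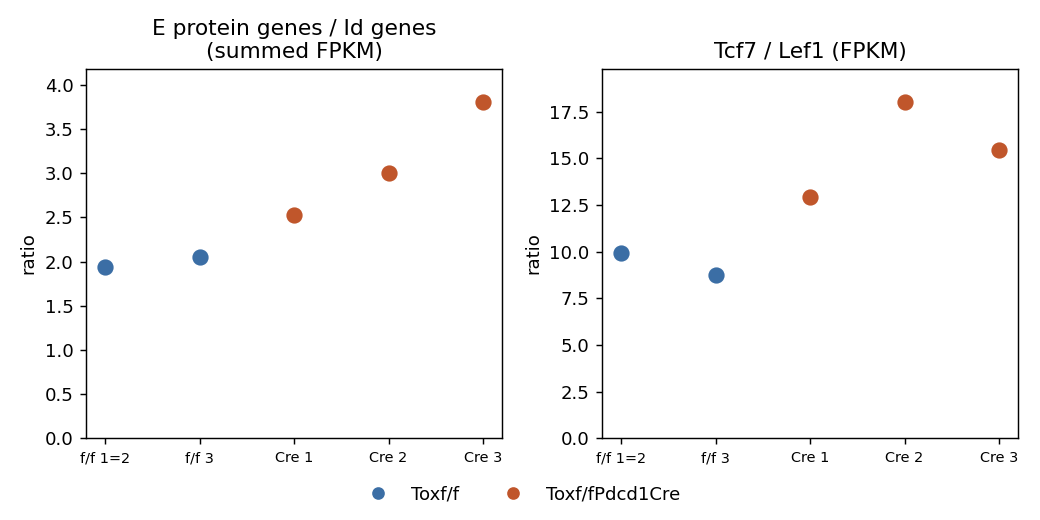
Ratio of summed E protein gene FPKM to summed Id gene FPKM (left) and of Tcf7 to Lef1 FPKM (right), with 1 point per distinct library and axes from 0. In both panels the 3 Toxf/fPdcd1Cre points lie above the Toxf/f points, at 2.53 and above against 2.05 and below on the left, and at 12.9 and above against 9.94 and below on the right.

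None of the 3 zinc finger factors passed the test. Bcl11b, on chromosome 12 from 107910403 to 108003602 (minus strand), stood at 458 and 467 CPM in Toxf/f and at 483, 448 and 592 CPM in Toxf/fPdcd1Cre. Replicate 3 of Toxf/fPdcd1Cre was the highest and replicate 2 the lowest of all 5 libraries, and the log2 fold change was 0.13 ± 0.15 (SE), with a 95% interval from -0.20 to 0.47 and an adjusted p of 0.870. Ikzf1, on chromosome 11 from 11685003 to 11772926 (plus strand), stood at 852 and 737 CPM against 718, 893 and 892 CPM. Its genotypes overlapped, and the log2 fold change was 0.07 ± 0.15 (SE), with a 95% interval from -0.27 to 0.41 and an adjusted p of 0.947. Gfi1, on chromosome 5 from 107716657 to 107726036 (minus strand), stood at 85.8 and 86.8 CPM against 87.8, 108 and 88.5 CPM. Its values did not overlap in CPM, but 2 of the 3 Toxf/fPdcd1Cre libraries lay within 3 CPM of Toxf/f, and FPKM values overlapped (35.6 and 39.7 against 41.8, 44.9 and 38.9). The log2 fold change was 0.13 ± 0.14 (SE), with a 95% interval from -0.17 to 0.44 and an adjusted p of 0.850.

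Neither of the activators, Myb and Ets1, passed the test. Myb, on chromosome 10 from 21124935 to 21160984 (minus strand), stood at 858 and 758 CPM in Toxf/f and at 779, 890 and 890 CPM in Toxf/fPdcd1Cre. Its highest library was 1.17 times its lowest, the narrowest span of the 9, and the log2 fold change was 0.08 ± 0.14 (SE), with a 95% interval from -0.23 to 0.39 and an adjusted p of 0.934. Ets1, on chromosome 9 from 32636221 to 32757820 (plus strand), stood at 1469 and 1220 CPM against 1090, 1392 and 1420 CPM. The shared Toxf/f library was the highest and Toxf/fPdcd1Cre replicate 1 the lowest, the same pair of extremes as for Tcf7. The log2 fold change was -0.05 ± 0.16 (SE), with a 95% interval from -0.41 to 0.31 and an adjusted p of 0.968. The sign of Ets1 turned without the shared Toxf/f library (0.10) and without Toxf/fPdcd1Cre replicate 1 (0.03). Without Toxf/f replicate 3 the signs of Ikzf1 and Myb turned too (-0.03 and -0.01).

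**Figure D4:**
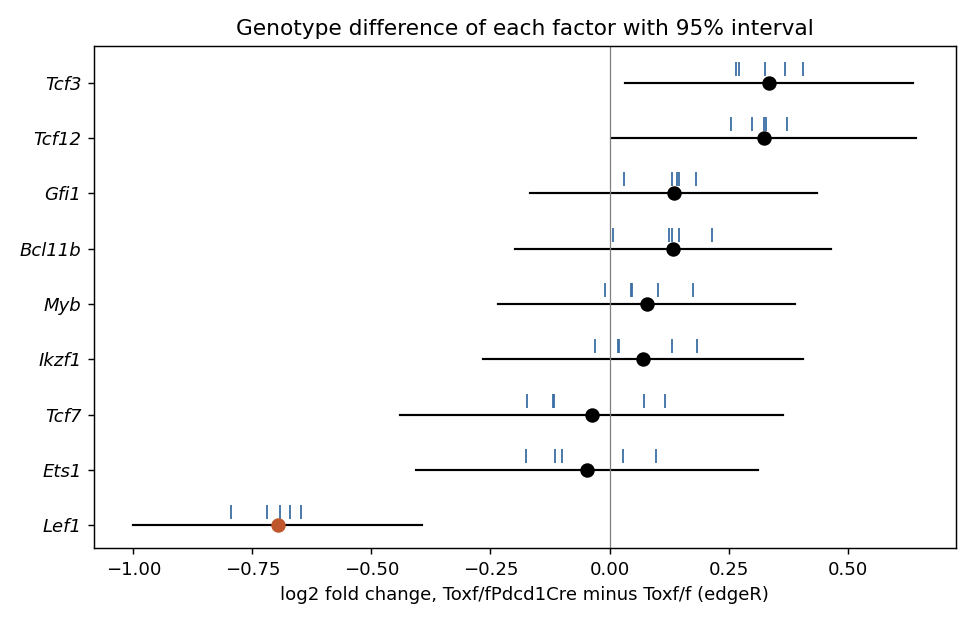
Log2 fold change of each factor, Toxf/fPdcd1Cre minus Toxf/f, from edgeR's fit (points, orange where the adjusted p is under 0.05), with the 95% interval as a line and the values with each library left out as blue ticks. Only the interval of Lef1 (-1.0 to -0.39) lies below 0, and those of Tcf3 (from 0.03) and Tcf12 (from 0.005) lie just above it.

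The 2 ages were then compared. No factor passed the test of the genotype by age interaction (edgeR, adjusted p = 0.9999 for each), where 0.0283% of all genes did. None had an unadjusted p under 0.05 either, against 2.68% of all genes, and 4 weeks had only 1 library of each genotype. For Lef1 the log2 difference from Toxf/f was -0.81 and -0.82 in the libraries of 3 weeks and -0.50 at 4 weeks, below 0 at both ages. For Tcf3 it was 0.25 and 0.42 at 3 weeks and 0.40 at 4 weeks, and for Tcf12 0.13, 0.45 and 0.37.

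Genes that work with these factors were described from lists of relatives, partners and targets. Bcl11b and Gfi1 are also listed as targets but were left out of the joint count. Of the 98 other tested genes on 12 lists, 4 passed as lower, Tox among them, and 2 as higher. Over all genes tested, 1.51% passed as lower and 0.135% as higher. The median log2 fold change of the 98 was 0.02. No gene passed among the 12 TCF/LEF relatives and co-factors (median -0.04), where Ctnnb1, which encodes beta-catenin, was at 0.09 ± 0.13 (SE) and Tle5 at -0.10 ± 0.15. Nor did any pass among the 10 E protein relatives, Id genes and partners (median -0.09), which include the adaptor gene Ldb1 at -0.11 ± 0.15. Among the 13 genes of the BCL11 relative and of NuRD, the complex that binds BCL11B and Ikaros, none passed (median 0.12), with the deacetylase gene Hdac1 at 0.24 ± 0.13 and the histone-binding subunit gene Rbbp7 at -0.04 ± 0.13. The same held for the 14 ETS family relatives (median -0.05; Ets2 at 0.10 ± 0.16 and Elf1 at 0.07 ± 0.15), the 4 MYB relatives and coactivators (median 0.20; Ep300 at 0.16 ± 0.19 and Crebbp at 0.10 ± 0.18) and the 5 genes of the GFI1 relative and its co-repressors (median 0.09; the demethylase gene Kdm1a at 0.10 ± 0.14 and Rcor1 at 0.08 ± 0.14).

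Among the 4 Ikaros family relatives, Ikzf4 fell. Ikzf4 encodes Eos, a partner of FOXP3 in regulatory T cells, and stood at 8.64 and 11.3 CPM in Toxf/f and at 3.48, 1.85 and 2.34 CPM in Toxf/fPdcd1Cre. All Toxf/fPdcd1Cre libraries were lower, 3.90-fold in the fit, on the log2 scale -1.96 ± 0.31 (SE), and the adjusted p was 0.00919. The call was lost without the shared Toxf/f library (-2.14, adjusted p = 0.0849) and without Toxf/f replicate 3 (-1.76, adjusted p = 0.241). Ikzf3, which encodes Aiolos, was at 0.34 ± 0.13 (adjusted p = 0.356), and Ikzf5 at 0.01 ± 0.16 (adjusted p = 0.991), with a sign that turned under upper-quartile scaling (-0.02).

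Of 11 other T lineage factors, Tox and Zbtb7b fell and none rose (median -0.005). Zbtb7b encodes ThPOK, the factor of CD4 lineage choice, and stood at 35.9 and 51.8 CPM in Toxf/f and at 18.8, 10.5 and 9.63 CPM in Toxf/fPdcd1Cre. It was 3.39-fold lower in the fit, on the log2 scale -1.76 ± 0.26 (SE), and the adjusted p was 0.00590. Its call was lost without the shared Toxf/f library (-2.0, adjusted p = 0.0529) and without Toxf/f replicate 3 (-1.47, adjusted p = 0.209). Satb1, a chromatin organiser of thymocytes, was at 0.07 ± 0.18 (SE). Ikzf4 and Zbtb7b, like the markers of regulatory and mature single-positive T cells given above, had lower values in Toxf/fPdcd1Cre, and the part of such cells in either value was not tested.

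Known targets were read next. None of the 9 E protein targets passed (median 0.13), with Rag1, the recombinase gene, at 0.23 ± 0.16 (SE) and Dntt, the gene of terminal transferase, at 0.26 ± 0.18. None of the 10 TCF-1 targets passed (median 0.09), with Cd3g, a subunit gene of the T cell receptor complex, at 0.11 ± 0.14 and the kinase gene Lck at 0.08 ± 0.15. Of 12 tested genes that BCL11B holds down in T cells (of 13 listed), 2 rose and none fell, although the median was -0.27. Both that rose encode receptors known from NK cells. Klrk1 stood at 3.71 and 4.40 CPM in Toxf/f and at 17.9, 10.8 and 10.6 CPM in Toxf/fPdcd1Cre, 3.22-fold higher (log2 1.69 ± 0.29, adjusted p = 0.0145). Klrb1c stood at 3.14 and 4.40 CPM against 20.5, 10.6 and 8.46 CPM, 3.49-fold higher (log2 1.80 ± 0.37, adjusted p = 0.0348). Both were highest in Toxf/fPdcd1Cre replicate 1 and kept their calls without it (1.35, adjusted p = 0.0173, and 1.29, adjusted p = 0.0374). Without the shared Toxf/f library both calls were lost (adjusted p = 0.197 for Klrk1 and 0.381 for Klrb1c), as they were without Toxf/f replicate 3 (0.209 and 0.307). Over all alternatives the call was lost in 5 of 17 for Klrk1 and in 7 of 16 for Klrb1c. The other named genes of this list, Id2 and Tyrobp, were at -0.64 and -0.22 (adjusted p = 0.0671 and 0.730). The gamma-delta T cell markers were higher in the same libraries as these receptors, and their part was not tested.

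Of 6 genes repressed by GFI1, 1 passed as lower and none as higher (median -0.61), and Gfi1 itself did not pass. Library values did not overlap and were lower for 5 of the 6, against 13.5% of all genes. In edgeR's fit 3 of the 6 had an unadjusted p under 0.05, against 10.3% of all genes. Id2, given above, is also on this list. The gene that passed was Il7r, which encodes the receptor of the survival cytokine IL-7 and is also on the list of mature single-positive markers. It stood at 48.8 and 53.5 CPM in Toxf/f and at 36.4, 24.8 and 30.3 CPM in Toxf/fPdcd1Cre, 1.68-fold lower (log2 -0.75 ± 0.17, adjusted p = 0.0496). This was close to the threshold, and the call was lost in 10 of 17 alternatives. Among them were the fits without the shared Toxf/f library (adjusted p = 0.249), Toxf/f replicate 3 (0.464), or Toxf/fPdcd1Cre replicate 2 (0.0934) or 3 (0.162).

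**Figure D5:**
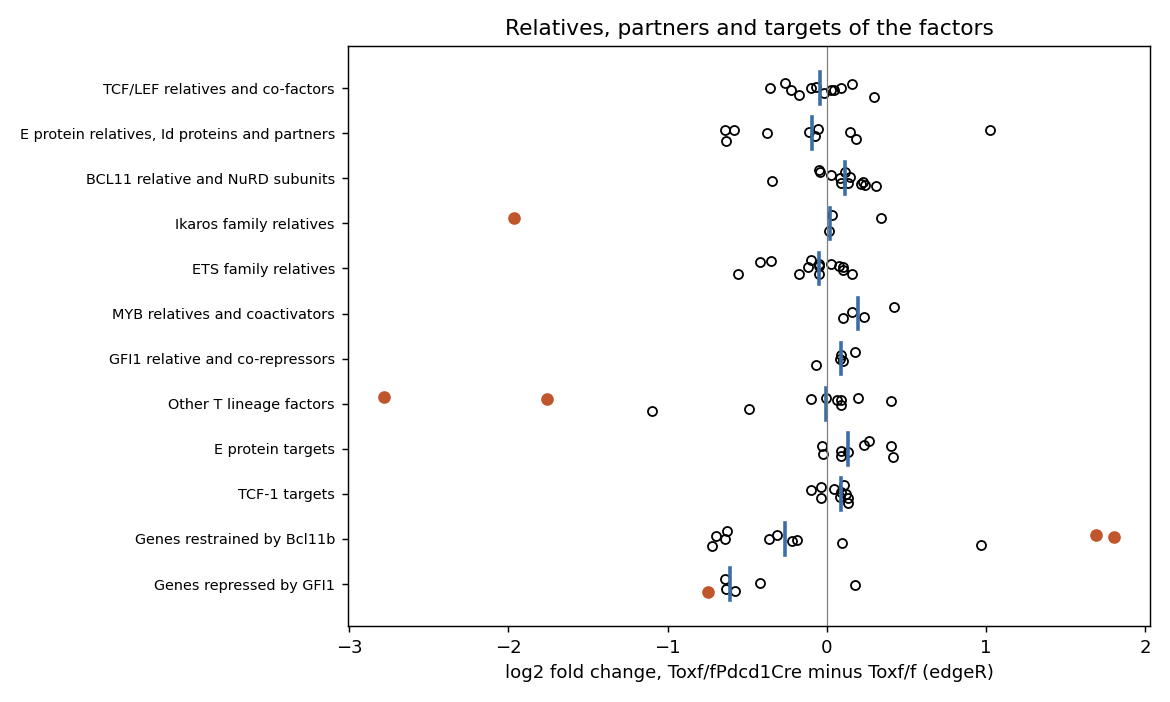
Log2 fold change of every tested gene on the 12 lists of relatives, partners and targets, Toxf/fPdcd1Cre minus Toxf/f, as open circles, with filled orange circles for adjusted p under 0.05 and a blue bar at each list's median. Most genes lie near 0, and the filled points are Ikzf4, Tox, Zbtb7b and Il7r on the lower side and Klrk1 and Klrb1c on the higher side.

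Lef1 and Tcf7 varied most over the 5 libraries, with SDs of log2 CPM of 0.40 and 0.23, and the genes closest to each in pattern were sought among 9338 others with at least 10 CPM on average. Likeness was the root mean square difference of centred log2 CPM over the 5 libraries, so a small value means a like pattern. The pattern of Lef1 includes its genotype difference, so the genes closest to it have a like fold change by selection. Among 9338 genes over 5 libraries, close matches can also arise without any link to the factor, and no link was tested. Closest to Lef1 were Sgms1 (0.07; log2 fold change -0.79, adjusted p = 0.0759), Gimap8 (0.08; -0.76, adjusted p = 0.0201) and Ass1 (0.08; -0.78, adjusted p = 0.0200). Closest to Tcf7 were D1Ertd622e (0.02), Otud1 (0.03) and Exd2 (0.05). D1Ertd622e, like Tcf7, was lowest in Toxf/fPdcd1Cre replicate 1, at 60.8 CPM against 71.2 to 88.5 CPM in the other 4 libraries.

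By the annotation terms in the deposited tables, 7 of the 9 factors carry sequence-specific transcription factor activity, a term of 3.70% of listed genes. Tcf7 and Lef1 are the pair that carries the Wnt signalling pathway, a term of 0.727% of listed genes. No other listed gene overlaps any of the 9 in GENCODE M21. Annotated genes that the tables do not list overlap 7 of them, from 1 for Gfi1, Myb and Ets1 to 11 for Tcf12, and without strand their reads cannot be told apart from those of the factor.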

How the data were processed

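Total RNA of sorted thymocytes was made into libraries with the NEBNext Ultra kit, per the labels' protocols. Every sample has its own deposited table of 22298 genes. Each gene has an estimated count, which the authors deposited without scaling to library size, and an FPKM value, which the authors divided by gene length and library total, per the file headers. Of the genes in each library, 8.81% to 9.84% had a count that was not exactly a whole number, with no tolerance. The submitters' processing notes name fastp 0.18.0, HISAT2 and StringTie 1.3.1. What each was used for is not given in the sources used here, nor are the build, the gene models, the counter or strandedness. Coordinates were looked up by Ensembl identifier in GENCODE M21 (GRCm38), a build that the authors may not have used.

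The identical files of Toxf/f replicates 1 and 2 entered once, so 5 libraries were tested where the labels give 6 samples. Estimated counts were rounded, filtered with filterByExpr and scaled by TMM. They were tested with edgeR 4.0.16 (R 4.3.3) by its quasi-likelihood test, as the difference of Toxf/fPdcd1Cre from Toxf/f without covariates, with Benjamini-Hochberg adjustment over all 14121 genes and a threshold of 0.05. CPM values use the TMM-scaled library sizes. Intervals are at 95% from the quasi-likelihood fit. Ratios were tested by exact two-sided permutation of log2 values over libraries with Python 3.11.15, which for 2 against 3 libraries cannot go below 0.1. The edgeR test was also run on simulated counts whose libraries varied only by size, by set fold changes and by the fitted dispersion. That run held no age or Ddx3y difference, so it does not show how the test behaves with them.

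The members, the gene lists and the tests were chosen with earlier results of these data known. The 9 factors and Tox were always named. From each other list up to 4 genes past the threshold with the smallest p and the 2 with the highest mean FPKM were named. Some genes that this rule picks are not reported here. Ddx3y, and Tcf4, Id1 and Id4 as terms of the ratio, fall outside this rule. Promoter windows are from RefSeq. Of the 9 factors 8 matched. The window of Tcf7 was left out of the motif counts after it was seen, because it was read as overlapping coding sequence of the long TCF-1 isoform. The annotations used here do not show this overlap. Ets1 had no entry. As alternatives, edgeR was run with RLE and with upper-quartile scaling, without the filter, with a stricter one (10 CPM in 3 libraries), with both identical files entered, with age added, with a replicate block and with each library left out. DESeq2 1.42.0, limma-voom (limma 3.58.1) and limma on log2(FPKM + 1) or log2(FPKM + 0.1), keeping genes of 1 FPKM or more in 3 libraries, were run as well.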

Additional observations from a re-analysis of the deposited data

Results flagged for a closer look

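The genotype difference of Tcf7 had opposite signs at the 2 ages. At 3 weeks the Toxf/fPdcd1Cre libraries were at -0.52 and -0.03 on the log2 scale relative to the shared Toxf/f library, and at 4 weeks the single Toxf/fPdcd1Cre library was at 0.26 relative to Toxf/f replicate 3. The interaction was 0.52 ± 0.49 (SE), with an unadjusted p of 0.310 and an adjusted p of 0.9999 in edgeR's fit, so the test of the difference did not pass. Ets1 had the same order of signs, at -0.43 and -0.08 at 3 weeks and 0.22 at 4 weeks. Its interaction was 0.46 ± 0.45 (SE), with an unadjusted p of 0.314 and an adjusted p of 0.9999. Both values at 3 weeks use the same Toxf/f library, and at 4 weeks there was 1 library of each genotype.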

How the results depend on the processing

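Sequencing depth was not varied, so what it limits was not tested. Of the 9 factors 1 was called, Lef1, and none with age as a covariate. Over fits that left out 1 library the number called was 0 to 1. The number of genes called, 232, was 417 with no filter, 67 with at least 10 CPM in 3 libraries, 359 with DESeq2, 113 on log2(FPKM + 1), 101 on log2(FPKM + 0.1), 380 with identical files counted separately and 125 with age. Leaving out 1 library gave 31 (without Toxf/f replicate 3) to 606 (without Toxf/fPdcd1Cre replicate 1), with 49 without the shared Toxf/f library and 114 without Toxf/fPdcd1Cre replicate 3. Where this left 1 Toxf/f library, it was assumed to vary like the other group. It stayed within 1.5 times under RLE, upper-quartile factors and voom. No factor was called as higher in any of the 17 settings.

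The labels number replicates alike in both genotypes, but the numbers are not shown to pair the samples. Deviations of same-numbered libraries correlated at -0.149 and -0.101 over genes, or 0.0951 where the shared library is read as replicate 2. The deviations of the 2 Toxf/f libraries from their mean are exact opposites, which ties these signs to each other. The correlations therefore cannot decide whether the samples are paired. With a replicate block the genes called were 435 (shared library as replicate 1) and 868 (as replicate 2), in each case with 1 library alone in its block. With the shared library as replicate 2 the block turned the signs of Tcf7 (0.12), Ets1 (0.071), Tle5 (0.0016) and Cd79b (-0.087). As replicate 1 it turned those of Rbbp7 (0.016), Ets2 (-0.019), Satb1 (-0.021), Cd8b1 (-0.092) and Cd79b (-0.054).

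Of 59 named genes, 19 passed, 4 of them under every alternative, and of the 40 that did not, 16 changed sign somewhere. Ikzf5 turned to -0.024 with upper-quartile factors, -0.050 at 10 CPM, -0.0040 with voom, -0.040 and -0.043 on the FPKM scales and -0.0041 with identical files separate. Cd8b1 turned to -0.0088 with upper-quartile factors, -0.037 at 10 CPM and on both FPKM scales and -0.036 with identical files separate. Cd79b turned to -0.027 and -0.030 on the FPKM scales and -0.018 with age.

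Leaving out 1 library gave ranges of the log2 fold change that span 0 for 16 named genes, none of which was called. For the factors they were -0.17 to 0.12 for Tcf7, -0.030 to 0.18 for Ikzf1, -0.0092 to 0.17 for Myb and -0.18 to 0.097 for Ets1. For the listed genes they were -0.23 to 0.059 for Tle5, -0.10 to 0.021 for Rbbp7, -0.15 to 0.10 for Ikzf5, -0.011 to 0.18 for Ets2, -0.038 to 0.12 for Elf1, -0.044 to 0.40 for Ep300, -0.099 to 0.34 for Crebbp, -0.039 to 0.18 for Satb1, -0.016 to 0.24 for Cd3g, -0.098 to 0.41 for Il2ra, -0.15 to 0.23 for Cd8b1 and -0.10 to 0.26 for Cd79b. The ratio of E to Id genes kept its direction in every alternative (0.47 to 0.76 on the log2 scale), as did that of Tcf7 to Lef1 (0.60 to 0.84). The causes of these changes were not tested.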
